A study of Mus musculus with 4 samples.

Results

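The 58 genes described here surround Opn4 on mouse chromosome 14. They were chosen by place and by mean level. They are the rows of the deposited table with a start between 30000000 and 35000000 of chromosome 14 (build mm10) and a mean over all libraries of 10 or more normalized counts, plus Ldb3. Of 23336 rows in the table, 84 start in this stretch, 64 of these reach the level and 20 do not, 6 of them at 0. Leaving out 7 by name (Opn4, Syt15, Ncoa4, Rbp3, Chat, Slc18a3 and Cacna1d) and adding Ldb3 gives 58, all of which are among the 15003 genes tested. Opn4 itself lies at chr14:34592343-34600142 on the minus strand. The mean level, which chose the genes, is given as a description. Syt15 and Ncoa4, which stood far lower in the mutants, were left out and Ldb3 was added with earlier results of these data known. Opn4, Chat, Slc18a3 and Rbp3, also left out, had both mutant libraries below both wild-type libraries as well. The log2 fold changes of the last 3 were -0.37, -0.21 and -0.22, and Cacna1d overlapped, at 0.03. Counts over the 58, above all of lower genes, depend on those choices.

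Retinas were taken at postnatal day 8 from Opn4-DTA/DTA mice and from wild-type (WT) littermates, all on a C57/Bl6 strain background per the labels, with 2 RNA sequencing libraries per group. Opn4-DTA/DTA mice carry the A chain of diphtheria toxin at both copies of Opn4, the gene for the light-sensing pigment melanopsin, so that they have no unaltered Opn4 allele and the toxin is made by cells that use the Opn4 promoter. The label for tissue names dissociated cells of the retina, whereas the design text names extracts of the whole retina. Whether the 2 libraries of each group stem from different animals is not stated in the labels, and the p-values thus reflect only how far these libraries differ, which may be technical.

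Genes that lie close together on a chromosome are inherited together. In a mouse with 2 copies of an inserted allele, the genes next to the insertion therefore come with it, on both chromosomes. This stretch of chromosome 14 carries genes of several roles: the growth factors Gdf10 and Gdf2 and the BMP receptor gene Bmpr1a, the ganglion cell gene Sncg, the cohesin regulator Wapal, and the chromatin genes Pbrm1 and Bap1. In the developing eye BMP signals help to set the dorsal side of the retina, while Sncg, which encodes gamma-synuclein, is a widely used marker of ganglion cells.

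The table holds group means, from which whole counts per library were recovered. The libraries of a group are called a and b and cannot be tied to sample labels. Total counts were 60833968 and 32032295 in the Opn4-DTA/DTA libraries and 28726275 and 22202382 in the WT libraries. A level of 3 counts equals 1.64 and 3.07 normalized counts in Opn4-DTA/DTA libraries a and b and 3.48 and 4.59 in WT libraries a and b. Opn4 stood at 0.546 and 0 normalized counts in the Opn4-DTA/DTA libraries, against 428 and 246 in the WT libraries. The photoreceptor gene Crx, which marks retina, stood at 61469 and 60866 normalized counts in Opn4-DTA/DTA and 64951 and 64641 in WT. Opn4-DTA/DTA library a stood apart in the sum of 5 lens markers, which was 319 and 98.2 in Opn4-DTA/DTA and 98.6 and 87.2 in WT, and WT library a in that of 5 markers of the pigment epithelium, which was 2762 and 2147 in Opn4-DTA/DTA and 4823 and 2006 in WT. The part of these cells in the values below was not tested.

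Annotation and table disagreed on the place of 3 of the 58 genes. The row named Ldb3 carries the description and the location of another gene, LIM domain binding 2, at chr5:44472133-44799707, while GENCODE M21 on the same build places Ldb3 at chr14:34526603-34588682, with a gap of 3661 bases to Opn4. The row named Emilin3 carries the location of Mmrn2, although GENCODE places Emilin3 at chr2:160906437-160912328. Snhg8, at chr3:123507552-123508404 in GENCODE, carries the location of 2010107H07Rik. The files do not tell which of the 2 genes was counted, so the Ldb3 values below are those of the row with that symbol. Ldb2 has a row of its own. Positions of these 3 genes follow GENCODE, and Emilin3 and Snhg8 are left out of the distances. By annotation 55 of the 58 are protein-coding, with 1 snoRNA (Snord69), 1 processed pseudogene (Gm3219) and 1 processed transcript (Snhg8).

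No gene of the 58 passed the test, and higher and lower values in Opn4-DTA/DTA were about equally frequent. On the log2(normalized count + 1) scale 28 were higher and 30 lower in Opn4-DTA/DTA, with a median log2 fold change of -0.01 and quartiles of -0.09 and 0.13, and 45 of 58 differed by less than 1.2-fold (77.6%, against 89.2% of all tested genes). A difference of at least 1.5-fold was fitted in 7 of 58 (12.1%, against 2.35% of all tested genes). The median over all 15003 tested genes was -0.0001. In limma's test with Benjamini-Hochberg adjustment over all tested genes, 0 of 58 passed an adjusted p of 0.05, where 0.02% of all tested genes passed. At an unadjusted p under 0.05, 9 of 58 genes were below the threshold (15.5%), where 1.66% of all tested genes were. Of the 9, 3 stood higher in Opn4-DTA/DTA (0.993% of all tested genes) and 6 lower (0.667% of all tested genes). The 6 include Ldb3, added with results known, and Gm5460 and Snord69, which reached the level through WT alone, so these counts support nothing. A count-based fit with limma voom gave 0 calls among the 58 and 3 over all tested genes. A p that misses the threshold does not show that the levels were equal, and with 2 libraries a group an exact two-sided permutation test of a single gene cannot go below 0.333. The number past the adjusted threshold was 0 of 58 without either Opn4-DTA/DTA library, where 0.0667% (library a) and 0.127% (library b) of all tested genes passed. When WT library a was left out it was 3 of 58 (Bmpr1a, Sh3bp5 and Wapal), where 2.04% of all tested genes passed. When WT library b was left out it was also 3 (Gdf10, Sncg and Capn7), where 1.58% of all tested genes passed. The lone library of a group is then assumed to vary as the others do. Counts at an unadjusted p under 0.05 are not given here for voom or these fits, since the share over all tested genes was not counted. The range given further below for these fits supports nothing for the same reason.

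In 21 of 58 genes (36.2%) both Opn4-DTA/DTA libraries lay on the same side of both WT libraries, where 23.5% of all tested genes were apart in this way. The 10 genes with both Opn4-DTA/DTA libraries above both WT libraries, against 11.2% of all tested genes, were Sh3bp5, Stab1, Lrrc18, Wdfy4, Colq, Spcs1, Nek4, 2010107H07Rik, Nt5dc2 and Fam35a. The 11 genes with both Opn4-DTA/DTA libraries below, against 12.3% of all tested genes, were Gdf10, Gm5460, Snord69, Ldb3, Arhgap22, Bmpr1a, Wapal, Gprin2, Ogdhl, Nisch and Chdh. Genes with few reads made up much of these counts. Of the 46 genes whose mean reached 100 normalized counts, 13 were apart (28.3%, against 22.0% of all tested genes of that level) and 4 had an unadjusted p under 0.05 (8.70%, against 1.23%). Of the 12 genes below that level, 8 were apart (66.7%, against 30.8%) and 5 had an unadjusted p under 0.05 (41.7%, against 3.76%). A gene near the level threshold may have passed it through the group where it is high, so counts that include such genes support nothing. Snord69, whose mean was 5.12 in Opn4-DTA/DTA and 16.0 in WT, and Gm5460, with 8.80 in Opn4-DTA/DTA and 22.9 in WT, reached it through WT, and Gdf2, with 12.7 in Opn4-DTA/DTA and 9.60 in WT, through Opn4-DTA/DTA. Just inside the threshold came Snord69 (10.5 normalized counts) and Gdf2 (11.2), and just outside it Mustn1 (9.35) and 1810011H11Rik (7.97).

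**Figure D1:**
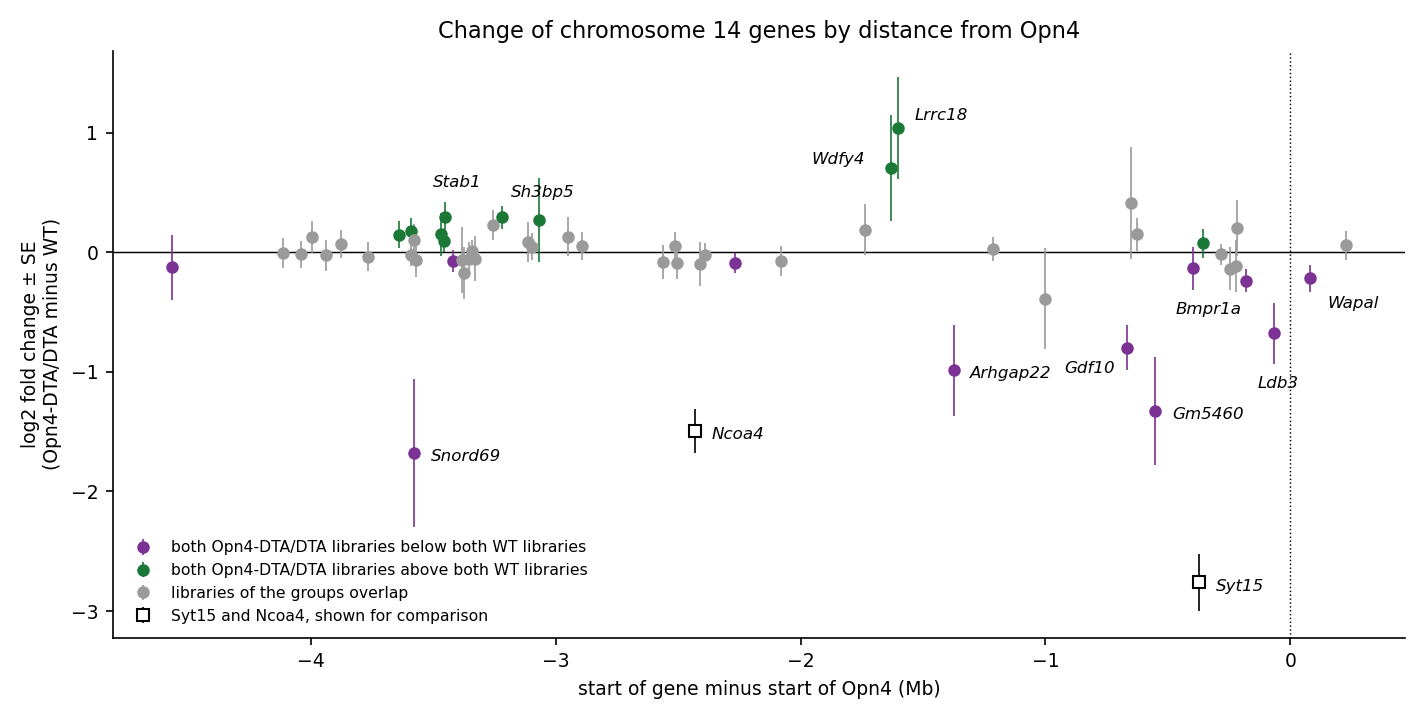
Log2 fold change (Opn4-DTA/DTA minus WT, with its standard error, n = 2 libraries per group) of 56 of the 58 genes on the y axis, against the start of the gene minus the start of Opn4 in megabases on the x axis, with Syt15 and Ncoa4 as open squares. Purple genes have both Opn4-DTA/DTA libraries below both WT libraries and green genes both above. Of the 7 coloured genes within 1 Mb of Opn4, 6 are purple, Ldb3 and Gm5460 among them. Of all tested genes 12.3% were apart as lower and 11.2% as higher.

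Among the genes nearest to Opn4 lower values in Opn4-DTA/DTA outnumbered higher ones, but not without WT library a. Within 1 Mb of the start of Opn4, 9 of 14 genes were lower and 5 higher, with a median log2 fold change of -0.12. Without WT library a 7 of these 14 were lower and 7 higher, with a median of 0.0015, and without the other libraries in turn between 8 and 11 were lower. In 6 of them (42.9%) both Opn4-DTA/DTA libraries lay below both WT libraries and in 1 (7.14%) above. Over all tested genes these shares were 12.3% and 11.2%. The 6 include Ldb3, added with results known, and Gm5460, which reached the level through WT alone, so their number supports nothing. With scaling by library totals 1 of the 9, Glud1, turned to 0.01. From 1 to 2.5 Mb, 6 of 10 were lower, with a median of -0.05, and 2 were apart in each direction. Beyond 2.5 Mb, 15 of 32 were lower, with a median of 0.03, and 3 were apart as lower (9.38%) and 7 as higher (21.9%). The difference between the distance classes was not tested, since the genes were chosen with results known. Syt15 and Rbp3, which lie within 1 Mb of Opn4 and were lower, are not in these counts. Nor are Ncoa4, Chat and Slc18a3, which lie at 1 to 2.5 Mb and were apart as lower. The other 449 tested genes of chromosome 14 had a median of -0.002, with 101 apart (22.5%) and 6 at an unadjusted p under 0.05 (1.34%). In the neighbouring stretch from 25 to 30 Mb the median of 19 genes was -0.04, with 3 apart, and from 35 to 40 Mb the median of 8 genes was -0.08, with 1 apart. No gene of either stretch had an unadjusted p under 0.05. At the edges of the stretch, Chdh was the first gene inside and Actr8 the last outside on the low side, and Grid1 the last inside and Gcap14 the first outside on the high side. Of the genes that the annotation places on either side of Opn4, 54 lie below it and 2, Wapal and Grid1, above it.

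For comparison, Syt15, a synaptotagmin gene 0.372 Mb from Opn4 and not among the 58, stood at 26.2 and 21.5 normalized counts in the Opn4-DTA/DTA libraries, against 169 and 164 in the WT libraries. On the log2 scale it differed by -2.76 (SE 0.24, limma adjusted p = 0.0268). Ncoa4, whose protein delivers ferritin to autophagy, lies 2.43 Mb away and stood at 202 and 176 in Opn4-DTA/DTA, against 458 and 620 in WT (log2 fold change -1.49, limma adjusted p = 0.208). Among the 58 the log2 fold changes ran from -1.68 for Snord69 to 1.04 for Lrrc18, both with at most 43 reads in any library. Fewer cells of a type and less RNA per cell cannot be told apart in whole-retina RNA, here or in any of the values below.

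The growth factor Gdf10, also known as BMP3b, had the lowest p of the 58 genes. It lies at chr14:33923587-33935282 on the plus strand, 0.669 Mb from Opn4. It stood at 154 and 149 normalized counts in the Opn4-DTA/DTA libraries, against 302 and 233 in the WT libraries. Both Opn4-DTA/DTA libraries lay close together and well below both WT libraries. The mean was 152 ± 3.62 in Opn4-DTA/DTA and 267 ± 48.9 in WT (SD, n = 2 each), 1.76-fold higher in WT, a log2 fold change of -0.80 (SE 0.19). The unadjusted p was 0.00317 and the limma adjusted p 0.9997, and of the 4 fits with a library left out it passed only in that without WT library b (-0.99, limma adjusted p = 0.0112). In the authors' deposited table its adjusted p was 0.0947, the lowest of the 58, and 0 of 58 genes passed there, where 0.113% of all tested genes did. At an unadjusted p under 0.05 the authors' deposited table has 8 of the 58 (13.8%), where it has 2.2% of all tested genes.

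Bmpr1a, which encodes a type I receptor for BMP ligands, is nearer to Opn4, at chr14:34411068-34502546 on the minus strand, with a gap of 89797 bases. It is well expressed, and stood at 3993 and 3912 normalized counts in the Opn4-DTA/DTA libraries, against 4379 and 4962 in the WT libraries. The groups did not overlap. The log2 fold change was -0.24 (SE 0.10, unadjusted p = 0.0445, limma adjusted p = 0.9997), and without WT library a it passed (-0.33, limma adjusted p = 0.0397). The other genes of the growth factor list had overlapping groups. Gdf2, the gene for BMP9, a ligand of vessel endothelium, stood at 14.2 and 11.3 normalized counts in Opn4-DTA/DTA, against 6.96 and 12.2 in WT. Mmrn2, a gene of the matrix around vessel endothelium, stood at 307 and 252 in Opn4-DTA/DTA, against 302 and 193 in WT (log2 fold change 0.20, SE 0.23). Of the 4 genes of this list among the 58, 2 were higher and 2 lower in Opn4-DTA/DTA, with a median of -0.02. The 2 lower ones had an unadjusted p under 0.05 in limma, where 1.66% of all tested genes had. Nrg3, also listed, starts outside the stretch.

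Ldb3, which encodes a protein of the muscle Z-disc that binds alpha-actinin, is the nearest of the 58 to Opn4. It was added by name, so its values are given as a description. It stood at 39.9 and 46.0 normalized counts in the Opn4-DTA/DTA libraries, against 63.8 and 75.0 in the WT libraries. These are 73 and 45 reads in Opn4-DTA/DTA and 55 and 49 reads in WT. The groups did not overlap, and the log2 fold change was -0.68 (SE 0.25), between -0.79 and -0.56 when any 1 library was left out. The other muscle genes differed by less than their standard errors. Tnnc1, which encodes the troponin C of slow and heart muscle, stood at 40.4 and 40.9 in Opn4-DTA/DTA, against 47.6 and 38.3 in WT, and Colq, which encodes the collagen tail of acetylcholinesterase, at 24.6 and 23.5 in Opn4-DTA/DTA, against 23.2 and 16.8 in WT. The sum of 8 muscle markers was 317 and 311 in Opn4-DTA/DTA and 375 and 279 in WT, with Tnnt3 and Tnni2 at or under 2.32 normalized counts in every library. Over the 3 muscle genes the median log2 fold change was -0.07, with 1 higher and 2 lower. Mustn1, also of this list, did not reach the level.

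Gm5460, a predicted protein-coding gene 0.551 Mb from Opn4 at chr14:34041078-34046981, was near the lower limit of measurement. It had 21 and 6 reads in the Opn4-DTA/DTA libraries, against 17 and 17 in the WT libraries, which are 11.5 and 6.14 normalized counts in Opn4-DTA/DTA and 19.7 and 26.0 in WT. Taken over the reads of each group, the rate in Opn4-DTA/DTA was 0.428 of that in WT (exact 95% interval 0.249 to 0.731, counting error only). The log2 fold change was -1.33 (SE 0.45, unadjusted p = 0.0199, limma adjusted p = 0.9997). Since the gene reached the level of 10 through WT alone, these values are a description and its p supports nothing.

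The 250 bases before the start of the 4 genes within 1 Mb of Opn4 that stood lower at an unadjusted p under 0.05 are shown to let their promoters be compared, each 5′ to 3′ on the strand of the gene, from RefSeq on GRCm38.p6. They lie at chr14:33923337-33923586 on the plus strand for Gdf10, chr14:34040828-34041077 on the plus strand for Gm5460, chr14:34502547-34502796 on the minus strand for Bmpr1a and chr14:34588682-34588931 on the minus strand for Ldb3. Capitals mark matches on either strand to the Sp1 site GGGCGG, to the TBP site TATAAA or to TAATCC, the core of the site of the photoreceptor factor Crx.
Gdf10: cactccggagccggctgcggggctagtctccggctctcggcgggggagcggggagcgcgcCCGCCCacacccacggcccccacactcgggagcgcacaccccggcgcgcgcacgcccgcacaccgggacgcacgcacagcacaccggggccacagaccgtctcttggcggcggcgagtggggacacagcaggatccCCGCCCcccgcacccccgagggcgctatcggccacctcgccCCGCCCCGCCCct
Gm5460: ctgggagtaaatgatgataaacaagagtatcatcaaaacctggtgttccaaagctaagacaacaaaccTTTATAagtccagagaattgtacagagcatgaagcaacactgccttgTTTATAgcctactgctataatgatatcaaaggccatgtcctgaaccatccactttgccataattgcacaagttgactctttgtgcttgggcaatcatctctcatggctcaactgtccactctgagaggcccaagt
Bmpr1a: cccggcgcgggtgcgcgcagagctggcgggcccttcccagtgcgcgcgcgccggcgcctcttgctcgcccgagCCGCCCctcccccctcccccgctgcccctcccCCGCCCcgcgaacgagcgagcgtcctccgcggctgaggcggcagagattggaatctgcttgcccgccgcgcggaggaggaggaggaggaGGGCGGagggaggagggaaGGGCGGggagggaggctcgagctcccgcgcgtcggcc
Ldb3: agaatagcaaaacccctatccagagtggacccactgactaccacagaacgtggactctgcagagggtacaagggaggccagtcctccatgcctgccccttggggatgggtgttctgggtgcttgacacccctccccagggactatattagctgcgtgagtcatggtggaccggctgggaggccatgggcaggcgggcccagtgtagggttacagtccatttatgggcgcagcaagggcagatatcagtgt
The promoters of Gdf10 and Bmpr1a have the same GC content, 78.8%, and 35 and 36 CpG dinucleotides, against a median of 52.0% and 6 over 27025 mouse promoters of this length. Each has 4 matches to GGGCGG, which may overlap, as in Gdf10. The Gm5460 promoter has 42.0% GC, no CpG and 2 matches to TATAAA, and the Ldb3 promoter has 58.4% GC, 5 CpG and no match to any of the 3 motifs. None of the 4 holds TAATCC. Among all promoters 33.0% hold GGGCGG, 13.0% TATAAA and 6.37% TAATCC, and the E-box letters CANNTG, not marked, are in 66.1% and among these 4 in that of Gm5460. Promoters were found for 49 of the 58 genes. Promoter here means the bases before the RefSeq start. By GENCODE, Bmpr1a starts at 34503341 and Gm5460 at 34016758, so the stretches shown for these 2 lie inside the GENCODE genes. A match is a description of letters, and its absence says nothing of the factor.

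Wapal and Grid1 lie on the other side of Opn4. Wapal encodes the factor that releases cohesin from chromosomes, at chr14:34673928-34746217 on the plus strand, with a gap of 73786 bases. It stood at 4340 and 3966 normalized counts in the Opn4-DTA/DTA libraries, against 4470 and 5225 in the WT libraries. The groups did not overlap, although Opn4-DTA/DTA library a came near WT library a. The log2 fold change was -0.22 (SE 0.11, unadjusted p = 0.0820), and without WT library a it passed (-0.33, limma adjusted p = 0.0447). Grid1, which encodes a delta-type glutamate receptor subunit, stood at 1109 and 991 in Opn4-DTA/DTA, against 1073 and 946 in WT, so that the groups overlapped and the log2 fold change was 0.06 (SE 0.12).

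Sncg, 0.222 Mb from Opn4 at chr14:34370274-34374669, had the highest level per length of the 58, 4472 normalized counts per kilobase of exon in Opn4-DTA/DTA and 5016 in WT. It stood at 3762 and 3857 normalized counts in the Opn4-DTA/DTA libraries, against 5395 and 3153 in the WT libraries. The WT libraries lay on either side of both Opn4-DTA/DTA libraries. The log2 fold change of -0.11 (SE 0.22) thus depends on the WT library. It was -0.50 without WT library b (limma adjusted p = 0.00309) and 0.27 without WT library a (limma adjusted p = 0.0756). The 6 listed ganglion cell markers other than Isl1 also had both Opn4-DTA/DTA libraries below WT library a and above WT library b. Thy1 stood at 5345 and 5679 in Opn4-DTA/DTA, against 7011 and 3841 in WT, and Rbpms at 2735 and 2618 in Opn4-DTA/DTA, against 3222 and 1797 in WT. The sum of 7 such markers was 40641 and 41094 in Opn4-DTA/DTA and 47517 and 33271 in WT, and its part in the Sncg values was not tested. Of the 5 neuronal genes among the 58 (Sncg, Grid1, Mapk8, Gprin2 and Arhgap22), 2 were higher and 3 lower, with a median of -0.11. The groups were apart in Gprin2 and Arhgap22, where 23.5% of all tested genes were apart.

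**Figure D2:**
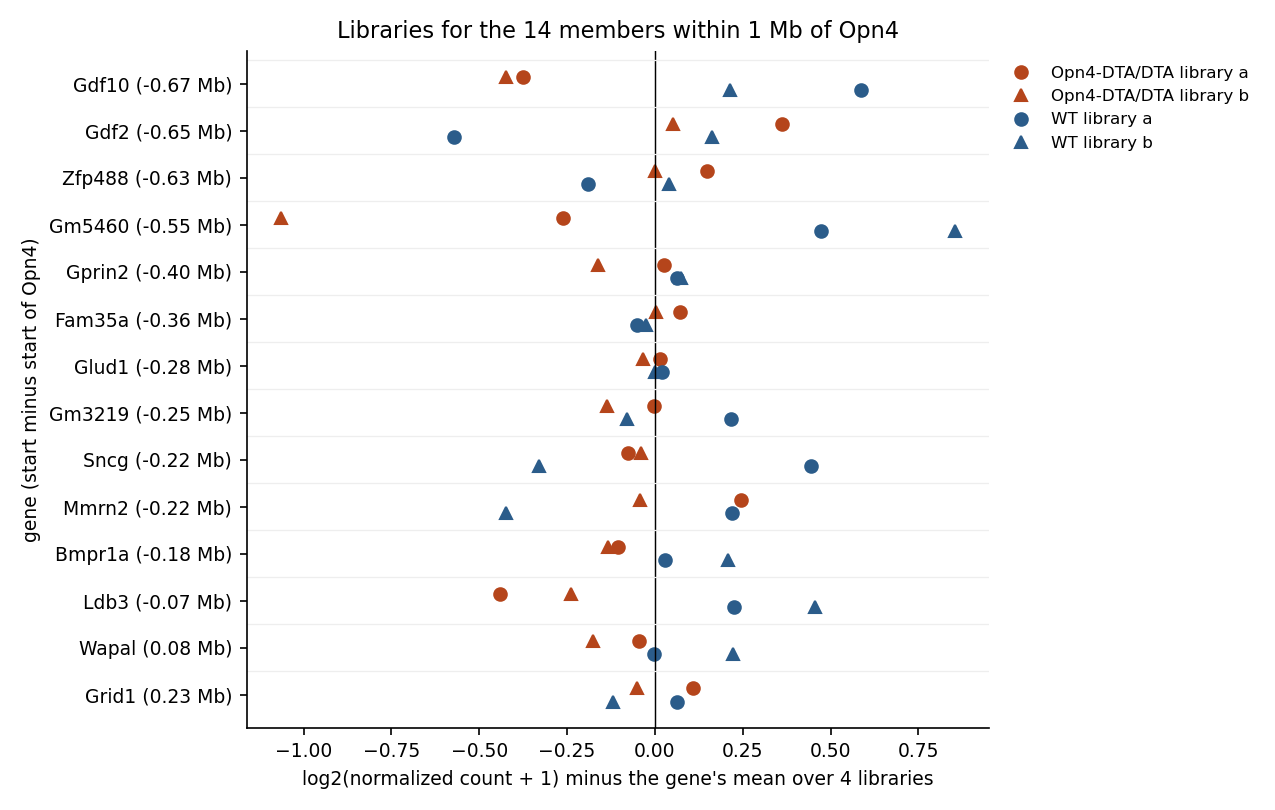
Each library's log2(normalized count + 1) minus the mean of the gene over 4 libraries (x axis) for the 14 genes within 1 Mb of Opn4 (y axis, ordered by position, with the distance of each start), Opn4-DTA/DTA in orange and WT in blue, circles for library a and triangles for library b. Gdf10, Gm5460, Gprin2, Bmpr1a, Ldb3 and Wapal have both orange points left of both blue ones, Fam35a has both to the right, and the blue points of Sncg lie on either side of the orange ones.

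The remaining genes within 1 Mb of Opn4 differed little. Fam35a, now called Shld2, a subunit gene of the shieldin complex of DNA repair, stood at 619.6 and 591 normalized counts in Opn4-DTA/DTA, against 569.8 and 580.0 in WT (log2 fold change 0.07, SE 0.12). Glud1, the gene for mitochondrial glutamate dehydrogenase, stood at 5117 and 4945 in Opn4-DTA/DTA, against 5129 and 5059 in WT (-0.02, SE 0.09). It starts 223 bases from Fam35a on the opposite strand. Gprin2, a gene for a G protein partner in neurite outgrowth, stood at 154 and 135 in Opn4-DTA/DTA, against 158 and 159 in WT. Zfp488, which encodes a zinc finger factor of oligodendrocytes, stood at 612 and 553 in Opn4-DTA/DTA, against 484 and 568 in WT. The pseudogene Gm3219 begins 21 bases after Glud1 on the same strand, and stood at 210.2 and 191 in Opn4-DTA/DTA, against 245 and 199 in WT. Reads running past the end of Glud1 could not be told apart from it.

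Between 1 and 2.5 Mb from Opn4 the larger differences among the 58 were all in genes with few reads. Ncoa4, left out by name, lies in this class and is well measured, with a log2 fold change of -1.49. Arhgap22, which encodes a GTPase activator of Rac1, stood at 14.2 and 14.3 normalized counts in the Opn4-DTA/DTA libraries, against 37.1 and 23.0 in the WT libraries. These are 26 and 14 reads in Opn4-DTA/DTA and 32 and 15 in WT, a rate in Opn4-DTA/DTA of 0.459 of that in WT (exact 95% interval 0.293 to 0.715, counting error only). Its log2 fold change was -0.99 (SE 0.38, unadjusted p = 0.0339, limma adjusted p = 0.9997). Lrrc18, a leucine-rich repeat gene, had the highest fitted log2 fold change of the 58, and stood at 23.5 and 24.6 in Opn4-DTA/DTA, against 8.12 and 15.3 in WT. With 43 and 24 reads in Opn4-DTA/DTA and 7 and 10 in WT, the ratio of rates was 2.13 (exact 95% interval 1.23 to 3.86, counting error only), and the log2 fold change 1.04 (SE 0.42, unadjusted p = 0.0426). Lrrc18 lies within Wdfy4 on the opposite strand, with an overlap of 23911 bases. Wdfy4, which in immune cells serves the presentation of antigens by dendritic cells, stood at 31.1 and 31.7 in Opn4-DTA/DTA, against 29.0 and 12.2 in WT (0.70, SE 0.44). The libraries keep strand per the labels, but the strand setting of the counting is not given in the sources used here, so reads of Lrrc18 and Wdfy4 may be shared. Mapk8, which encodes the kinase JNK1, was well measured and stood at 5361 and 5261 in Opn4-DTA/DTA, against 4881 and 5584 in WT (0.02, SE 0.10).

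**Figure D3:**
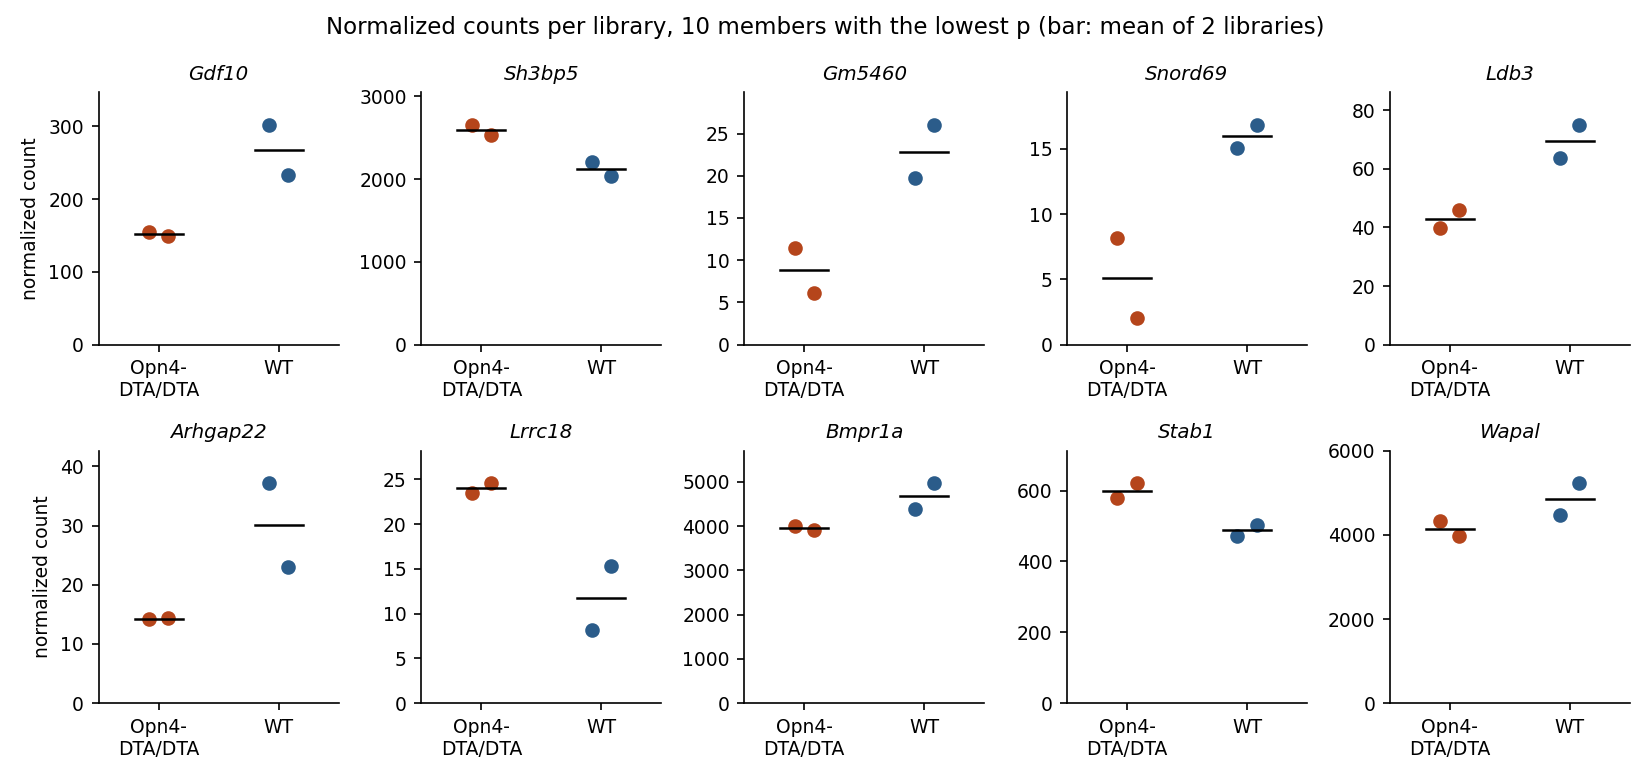
Normalized counts of each library (y axis, from 0, a scale for each gene) for the 10 genes with the lowest limma p, Opn4-DTA/DTA in orange on the left and WT in blue on the right of each panel, with a bar at the mean of 2 libraries. In each panel the groups do not overlap, which the choice by p in these same libraries favours, so it supports nothing. The WT points of Gdf10, Arhgap22 and Lrrc18 are farther apart than their Opn4-DTA/DTA points.

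Farther from Opn4, 2 genes stood higher in Opn4-DTA/DTA at an unadjusted p under 0.05. Sh3bp5, which encodes an exchange factor of Rab11 that also binds JNK, lies 3.22 Mb from Opn4. It stood at 2653 and 2531 normalized counts in the Opn4-DTA/DTA libraries, against 2209 and 2031 in the WT libraries. The groups did not overlap, and the log2 fold change was 0.29 (SE 0.10, unadjusted p = 0.0191, limma adjusted p = 0.9997). Without WT library a it passed (0.35, limma adjusted p = 0.0397). Stab1, a scavenger receptor gene of macrophages and vessel endothelium 3.45 Mb away, stood at 579.8 and 620.1 in Opn4-DTA/DTA, against 472 and 504 in WT (0.30, SE 0.13, unadjusted p = 0.0470). Its end overlaps that of Nt5dc2 by 108 bases on the opposite strand, and Nt5dc2 differed by 0.09. The sum of 6 markers of vessel endothelium was 16305 and 15062 in Opn4-DTA/DTA and 15261 and 15529 in WT, with 5 of 6 higher in Opn4-DTA/DTA and a median log2 fold change of 0.19, and their part in the Stab1 values was not tested.

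Snord69, a small nucleolar RNA of 59 bases in the table, had the lowest fitted log2 fold change of the 58, -1.68 (SE 0.62, unadjusted p = 0.0279, limma adjusted p = 0.9997). It had 15 and 2 reads in the Opn4-DTA/DTA libraries, against 13 and 11 in the WT libraries, which are 8.19 and 2.05 normalized counts in Opn4-DTA/DTA and 15.1 and 16.8 in WT. The ratio of rates was 0.382 (exact 95% interval 0.193 to 0.742, counting error only). Because Snord69 reached the level threshold through WT alone, these values are a description and its p supports nothing. Snord69 lies inside Gnl3 on the same strand, so its reads cannot be told apart from those of the Gnl3 transcript. Gnl3, the nucleostemin gene, stood at 789 and 769 in Opn4-DTA/DTA, against 661 and 796 in WT (0.10, SE 0.13).

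The genes of chromatin and DNA repair had small fitted differences, as most tested genes did. Of the 8 listed, 3 were higher and 5 lower in Opn4-DTA/DTA, with a median of -0.04. All 8 differed by less than 1.2-fold, where 89.2% of all tested genes did. In limma 0 had an unadjusted p under 0.05, where 1.66% of all tested genes had. In 1 of them, Wapal, the groups did not overlap. Pbrm1, which encodes a subunit of the PBAF remodelling complex, stood at 6948 and 6816 normalized counts in Opn4-DTA/DTA, against 6195 and 8388 in WT. Bap1, which encodes a deubiquitinase of histone H2A, stood at 5962 and 5768 in Opn4-DTA/DTA, against 5781 and 5852 in WT (0.01, SE 0.09). Ercc6, of transcription-coupled repair, differed by -0.07, Parg, which removes poly(ADP-ribose), by -0.02 (0.01 with scaling by library totals), the MBT repeat gene Sfmbt1 by 0.07 and the PHD finger gene Phf7 by -0.06.

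The genes of metabolism and mitochondria were lower in 6 of 8 cases, by small amounts. Their median log2 fold change was -0.05, and all 8 differed by less than 1.2-fold, where 89.2% of all tested genes did. In limma 0 had an unadjusted p under 0.05, where 1.66% of all tested genes had. With scaling by library totals Glud1 and Tkt turned to 0.01 each. Ogdhl, a relative of the oxoglutarate dehydrogenase gene, stood at 4473 and 4327 normalized counts in Opn4-DTA/DTA, against 4632 and 4738 in WT (-0.09, SE 0.09). Tkt, which encodes transketolase of the pentose phosphate pathway, stood at 6416 and 6114 in Opn4-DTA/DTA, against 6974 and 5777 in WT. Timm23 of the inner membrane import pore differed by -0.10, Chdh, the choline dehydrogenase gene, by -0.13, Oxnad1 by -0.09, Btd, the biotinidase gene, by 0.13 and Nt5dc2 by 0.09. Hacl1 is placed within the stretch by GENCODE but on another chromosome in the table, so it is not among the 58. Dph3, which takes part in making diphthamide, the residue that diphtheria toxin modifies, stood at 2234 and 2116 in Opn4-DTA/DTA, against 2308 and 1905 in WT (0.05, SE 0.12). Of the 3 listed genes for inter-alpha-trypsin inhibitor heavy chains, Itih1, Itih3 and Itih4, none is among the 58.

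**Figure D4:**
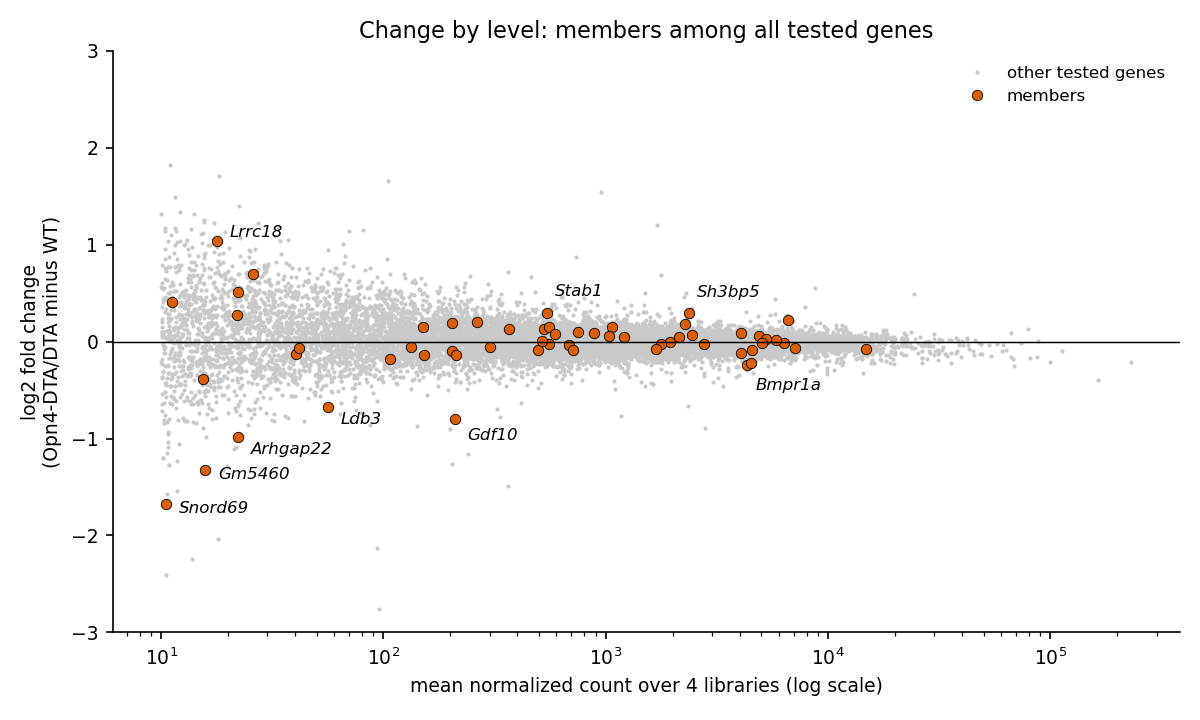
Log2 fold change (Opn4-DTA/DTA minus WT, y axis) against mean normalized count over 4 libraries (x axis, log scale) for the 58 genes in orange among other tested genes in grey. The y axis is limited to 3 in either direction. Tested genes beyond it are not shown, among them Opn4, the lowest at -8.03, and the highest at 6.01. The genes far from 0 are those with low counts, except Gdf10.

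The genes with the highest counts were Nisch, Pbrm1, Capn7, Tkt and Bap1. Nisch, the nischarin gene, stood at 14732 and 13963 normalized counts in Opn4-DTA/DTA, against 14967 and 15279 in WT, and its log2 fold change was -0.08 (SE 0.09). Capn7, an atypical calpain protease gene, stood at 6806 and 7402 in Opn4-DTA/DTA, against 5392 and 6836 in WT, so that the groups overlapped. Its log2 fold change was 0.23 (SE 0.13), and it passed without WT library b (0.40, limma adjusted p = 0.0203). Per kilobase of exon the order was Sncg, Nt5dc2, Spcs1, Capn7, Bap1 and Glud1, and the lowest was Wdfy4 at 2.98 in Opn4-DTA/DTA and 1.95 in WT. From Nt5dc2 at 1751 per kilobase in Opn4-DTA/DTA and 1644 in WT down to Glud1 at 1195 in Opn4-DTA/DTA and 1210 in WT, neighbours in this order lay close together. Sncg stood well above them in each library.

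**Figure D5:**
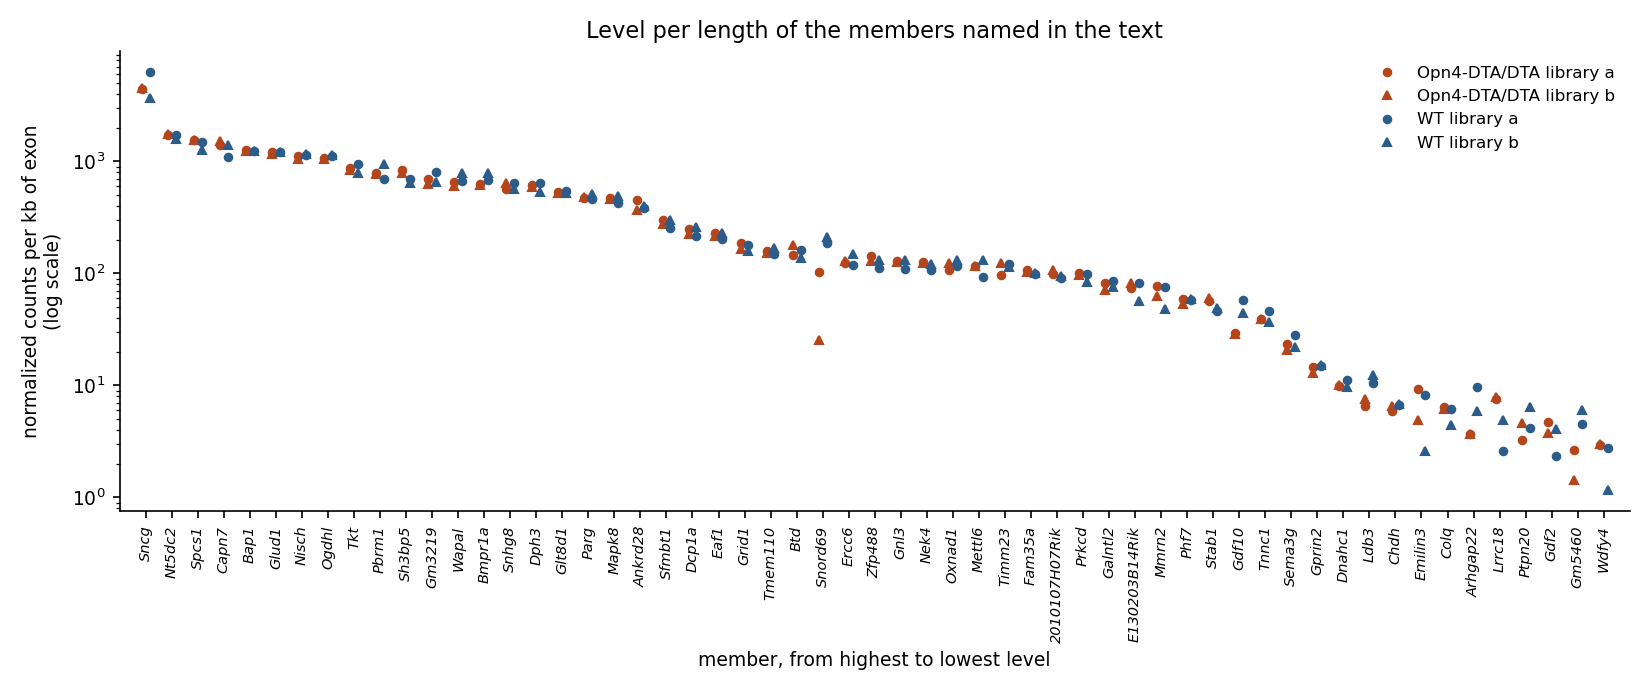
Normalized counts per kilobase of exon (y axis, log scale) of each library for the genes named in the text (x axis, from highest to lowest mean), Opn4-DTA/DTA in orange and WT in blue, circles for library a and triangles for library b. Libraries lie close together for most genes and spread for those with few reads at the right and for Snord69.

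Genes that start next to each other on opposite strands showed no stable pattern of direction. Among the 58 genes 8 pairs start within 1 kb of each other on opposite strands, and fitted values had the same sign in 2 of them and opposite signs in 6. In all 6 at least 1 gene changed sign when some library was left out. Each gene of the 2 pairs of the same sign also did so, and the split was not tested. Mettl6, a tRNA methyltransferase gene, and Eaf1, a partner gene of the elongation factor ELL, were a pair of the first kind, at 0.08 and 0.05. Timm23 and Parg, at -0.10 and -0.02, were the other. Of the second kind were Sncg and Mmrn2, whose starts are 834 bases apart, at -0.11 and 0.20, and Dph3 and Oxnad1 at 0.05 and -0.09. By strand, 12 of 33 genes on the plus strand and 16 of 25 on the minus strand were higher in Opn4-DTA/DTA. The 25 include Emilin3 and Snhg8, which GENCODE places on the minus strand of other chromosomes and which were both higher.

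Among the other genes of the stretch, a few had groups apart. Spcs1, which encodes a subunit of the signal peptidase, stood at 2408 and 2413 normalized counts in Opn4-DTA/DTA, against 2303 and 1963 in WT (0.18, SE 0.11), and Nek4, a kinase gene, at 1137 and 1109 in Opn4-DTA/DTA, against 953 and 1082 in WT (0.15, SE 0.11). 2010107H07Rik, now called Smim4, stood at 151 and 165 in Opn4-DTA/DTA, against 139 and 145 in WT. In Dcp1a, Prkcd, Tmem110, Glt8d1, Sema3g, Dnahc1, Ankrd28, Galntl2, E130203B14Rik, Ptpn20, Emilin3 and Snhg8 the groups overlapped. All of these but Ptpn20 and Emilin3 differed by less than 1.2-fold. Ptpn20, a tyrosine phosphatase gene, had 10.9 and 15.4 in Opn4-DTA/DTA, against 13.9 and 21.4 in WT (-0.39, SE 0.42), and Emilin3 had 32.8 and 17.4 in Opn4-DTA/DTA, against 29.0 and 9.18 in WT (0.51, SE 0.58).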

How the data were processed

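Per the file headers and the values, the deposited signal of a gene is the mean, over the 2 libraries of a group, of its counts after division by size factors (normalized counts). Beside it the authors gave a log2 fold change with its error, a score (the test statistic), and p-values before and after adjustment. The submitters' processing notes name FastQC, STAR, HTSeq, DESeq2 and mm10, and their versions are not given in the sources used here. Directional libraries of polyadenylated RNA were sequenced, per the labels' protocols.

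The low values of each deposited group mean are sums of whole multiples of 2 steps, 1 per library. All 17757 WT means and 18327 Opn4-DTA/DTA means above 0 had exactly 1 solution in whole counts at a relative tolerance of 3e-13. The procedure recovered 4921 of 4921 simulated Opn4-DTA/DTA pairs and 4911 of 4911 simulated WT pairs. Chi-square per degree of freedom, over the counts of all genes, came to 21.0 between the Opn4-DTA/DTA libraries and 29.3 between the WT libraries, so neither pair was 1 library deposited in duplicate. Pearson's r of log2 values over genes, which are not independent, lay between 0.989 and 0.993 for all pairs of libraries.

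The test was limma 3.58.1 (R 4.3.3) on log2(normalized count + 1), with a trend of variance on level, no covariates, Benjamini-Hochberg adjustment and a threshold of 0.05. It covered the 15003 genes whose mean reached 10 normalized counts. For genes with few reads this log2 scale makes a change look smaller than it is. The count tests of edgeR were not used, since the deposited values are means and not counts, and voom on the recovered counts served as an alternative. Other alternatives were the pseudocount, the filter, the scaling, the trend and leaving out each library. Levels per kilobase used exon lengths of GENCODE M21, and promoters came from RefSeq GRCm38.p6. Symbols were matched to GENCODE directly or through 6 older symbols (2010107H07Rik, Dnahc1, Galntl2, E130203B14Rik, Fam35a and Wapal).

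The genes, the lists by role and the tests were chosen with earlier results of these data known. Genes named are those within 1 Mb of Opn4, the 10 with the lowest limma p, the 5 with the highest mean and those of the lists by role, with Opn4, Syt15 and Ncoa4 beside them. Spcs1, Nek4, 2010107H07Rik, Wdfy4, Ptpn20, Emilin3, Mettl6 and Eaf1 were added after their values were seen, and so were Dcp1a, Prkcd, Tmem110, Glt8d1, Sema3g, Dnahc1, Ankrd28, Galntl2, E130203B14Rik and Snhg8, to account for the remaining genes. A second deposited sheet, which repeats rows of the main one, is not used here. Of the 58 genes, 1 is counted but not reported by name here.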

Additional observations from a re-analysis of the deposited data

How the results depend on the processing

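No paired analysis was possible because the labels give no replicate number that the groups share and the recovered libraries cannot be tied to samples. Leaving out 1 library at a time gave between 10 and 306 genes past the limma threshold over all tested genes and between 0 and 3 of the 58, between 1 and 16 of the 58 at an unadjusted p under 0.05, between 31 and 47 with groups apart (where 46.6% to 77.6% of all tested genes were) and a median of -0.0215 to 0.0103. The sign of 27 of 58 genes was the same in all 4 of these fits, and 6 passed in at least 1 of them (Gdf10, Sncg, Capn7, Bmpr1a, Sh3bp5 and Wapal). In these 4 fits the share of all tested genes at an unadjusted p under 0.05 was not counted. The range of 1 to 16 of the 58 thus has no share to be set against and supports nothing. Without a variance trend 0 genes of all tested passed. With library totals the median of the 58 was 0.0162, where that of all genes was 0.0285, and Glud1 (0.0104), Parg (0.00538) and Tkt (0.00936) changed sign. The pseudocounts of 0.5 and 10, recomputed size factors, voom and the absence of a filter changed the sign of 0 of 39 named genes and no call among the 58. The median was -0.12 within 1 Mb of Opn4 and 0.0289 beyond 2.5 Mb, and without 1 library at a time, an alternative chosen after seeing the data, -0.15 to 0.0015 and -0.00998 to 0.0478. Of 46 genes with a mean of at least 100, chosen after seeing the data, 13 were apart and 4 had an unadjusted p under 0.05. Without the 3 genes that the annotation places elsewhere than the table, also chosen then, 20 of 55 were apart and 8 had such a p.

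The log2 fold changes that changed sign when 1 library was left out ranged as follows: Bap1 -0.0121 to 0.0355, Btd -0.00488 to 0.27, Dph3 -0.0862 to 0.19, Ercc6 -0.22 to 0.0798, Glud1 -0.0428 to 0.00634, Gm3219 -0.29 to 0.0114, Gnl3 -0.0305 to 0.24, Grid1 -0.0338 to 0.15, Mapk8 -0.0724 to 0.12, Mmrn2 -0.12 to 0.53, Oxnad1 -0.21 to 0.0217, Parg -0.0967 to 0.0502, Pbrm1 -0.29 to 0.15, Phf7 -0.12 to 0.00508, Sfmbt1 -0.0481 to 0.19, Sncg -0.50 to 0.27, Timm23 -0.28 to 0.0777, Tkt -0.16 to 0.12, Tnnc1 -0.22 to 0.0857. This list covers the 39 named genes only, so Mettl6, Eaf1 and others that changed sign are not in it. The cause of these changes was not tested.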
